A study of Mus musculus with 35 samples.

Results

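Glycolysis breaks glucose down to pyruvate, and the fate of that pyruvate is then set by lactate dehydrogenase, the lactate transporters, the mitochondrial pyruvate carrier and the pyruvate dehydrogenase (PDH) complex. The 37 genes described here code for these steps. They were chosen by name from the pathway, out of 44853 genes in the induction table, with earlier results of these data known. All 37 were present and passed the filter on low values there. A second table, from an siRNA experiment, lists 6275 genes that the study had classed as GATA6-responsive, and it holds 21 of the 37.

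The libraries were polyA RNA-seq of mouse cells, 35 in all. KH2 embryonic stem (ES) cells of a C57BL/6 x 129/Sv background, which carry a doxycycline (Dox)-inducible Gata6 cassette, were collected without Dox (0h) and after 16, 24, 48, 72, 96 and 168 h of 1 ug/mL Dox, with 3 libraries per time. GATA6 is the transcription factor that specifies primitive endoderm (PrE), the early extraembryonic lineage, and forcing its expression turns ES cells towards that fate. The XEN line X10, wild-type extraembryonic endoderm cells of CD1 origin (2 libraries), served as the end point of the lineage. The other 12 libraries came from the inducible cells after 48 h of Dox with a control siRNA (siCTL, 6 libraries) or an siRNA pool against Oct4, also called Pou5f1 (siOct4, 6 libraries). The inducible cells were clonal, and all cells grew on mouse fibroblast feeders that were removed by a short adsorption step. The ES cell medium held LIF, and the XEN medium did not. Because XEN cells differ from the inducible cells in strain, medium and origin, the effects of lineage and of these differences cannot be told apart.

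ES cells are known for running glycolysis fast even when oxygen is available. Much of the control sits at a few points: glucose entry, phosphofructokinase-1, and the PDH kinases, which shut off the PDH complex. Many of these genes are textbook targets of hypoxia-inducible factor (HIF), which binds the core letters ACGTG or GCGTG. Most steps are coded by paralogues with different regulation, so that a step can keep its level while the gene that supplies it changes.

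Values are TPM (transcripts scaled to the same total in each library), a scale corrected for transcript length, so that levels of different genes may be set side by side. Changes are differences of mean log2(TPM + 1) with their SE, and a change was called when limma gave an adjusted p under 0.05 over all genes tested and the change exceeded 1 in the induction series. The files give no read depth, so low values carry a counting error that is unknown. In bulk libraries, fewer cells of a type and less RNA per cell cannot be told apart.

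The third 72h library stood furthest apart. The libraries numbered 1 and 2 were the closest pair in all 7 groups of the inducible cells, and at 72h the third library correlated with them at only 0.970 and 0.972, against 0.990 between the other two (Pearson, log2 scale, 15057 genes). The summed level of the 18 enzyme members from hexokinase to lactate dehydrogenase was 17901 and 19276 TPM in 72h libraries 1 and 2 and 11077 TPM in library 3. Library 3 was below both others for 30 of the 37 members at 72h, against 50.1% of all genes tested, and for 14 of 15 HIF targets outside glycolysis. Bnip3, a HIF target chosen after its values were seen, stood at 266, 305 and 32.1 TPM in the 72h libraries, and Ndrg1 at 92.01, 91.00 and 6.78 TPM. The third 0h library was shifted the same way to a lesser degree, with 26 of 37 members below both others against 44.3% of all genes, and Bnip3 at 95.8, 98.6 and 30.1 TPM. The third 24h library was shifted the other way, with 22 of 37 members above both others against 41.6% of all genes, and 12 of 15 HIF targets above. Without it the 24h calls were 2 higher and 1 lower, as with it. The part of these library differences in the results was not tested, and results that rest on the third 72h and 0h libraries are given with and without them.

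**Figure D1:**
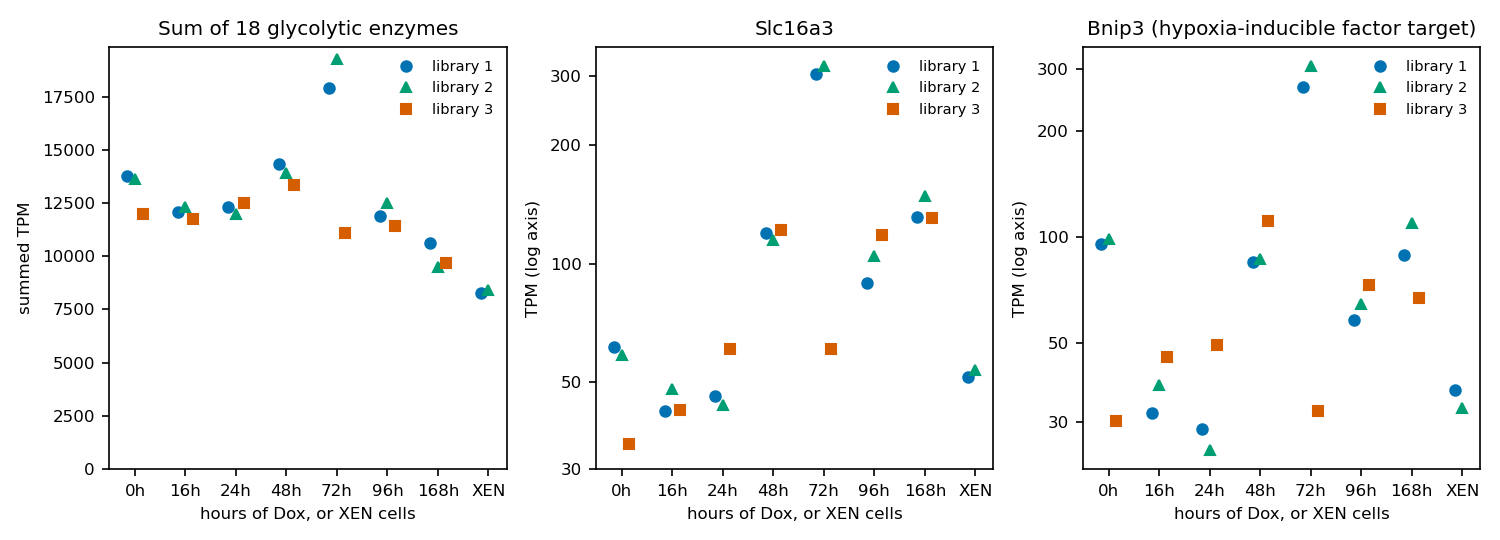
Summed TPM of the 18 glycolytic enzyme members (left), TPM of Slc16a3 (middle, log axis) and TPM of Bnip3 (right, log axis) in each of the 23 libraries of the induction series, with the symbol giving the library number. The 72h libraries 1 and 2 sit at 17901 and 19276 summed TPM and 72h library 3 at 11077, and the same library is low for Slc16a3 and Bnip3.

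The labels held against marker genes. The summed TPM of 8 ES cell markers fell from between 3524 and 3631 at 0h to between 90.4 and 166 at 168h, and all 8 were called lower, while all 9 PrE markers were called higher. Markers of feeder fibroblasts, 10 genes, summed to between 55.1 and 141 TPM at 0h and between 149 and 309 TPM at 168h, with 6 called higher and none at 0 in every library, and their part in the changes below was not tested. Trophectoderm markers (1 of 4 tested called, lower) and neural or mesodermal markers (0 of 1 tested called) were low at 168h, with sums of at most 8.89 and 0.579 TPM. Before that, 2 of the 4 trophectoderm markers (Eomes and Krt7) were called higher at 48h. At 72h and 96h, 3 (Cdx2, Eomes and Krt7) were called higher and 1 (Tfap2c) lower. Of all genes, 9.14%, 14.7% and 15.4% were called higher at these times. The trophectoderm sum was at most 34.4 TPM at 72h, against 33.0 to 45.1 TPM at 0h.

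Promoter windows from RefSeq (GRCm38.p6, the assembly of mm10) matched 36 of the 37 members, in 56 windows. The 250 bases before the RefSeq start of 6 members are shown. These members were picked from the called ones described below: both lactate transporters, the phosphofructokinase pair that moved in opposite directions, Pdk1 and Pgk1. The windows of Slc16a3 and Pfkl lie inside the GENCODE gene spans given below, which begin further upstream. Letters in capitals mark the HIF core ACGTG or GCGTG on either strand (CACGT and CACGC on the other).
Slc16a1 (chr3:104638414-104638663, plus strand): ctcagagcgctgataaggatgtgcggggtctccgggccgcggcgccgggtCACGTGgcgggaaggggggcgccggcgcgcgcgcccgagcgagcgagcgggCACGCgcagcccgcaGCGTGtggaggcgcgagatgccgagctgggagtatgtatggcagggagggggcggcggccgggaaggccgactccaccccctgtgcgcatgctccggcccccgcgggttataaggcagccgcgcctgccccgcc
Slc16a3 (chr11:120948817-120949066, plus strand): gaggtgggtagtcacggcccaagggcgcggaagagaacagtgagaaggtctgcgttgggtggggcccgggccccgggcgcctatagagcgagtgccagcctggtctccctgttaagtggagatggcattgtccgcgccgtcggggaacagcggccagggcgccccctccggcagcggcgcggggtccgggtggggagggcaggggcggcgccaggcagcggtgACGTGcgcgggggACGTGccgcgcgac
Pgk1 (chrX:106186850-106187099, plus strand): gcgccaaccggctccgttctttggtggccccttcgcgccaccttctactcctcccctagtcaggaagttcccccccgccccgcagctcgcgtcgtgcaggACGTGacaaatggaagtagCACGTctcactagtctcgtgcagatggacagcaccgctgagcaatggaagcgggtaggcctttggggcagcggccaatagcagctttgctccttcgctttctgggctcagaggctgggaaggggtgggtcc
Pfkl (chr10:78009808-78010057, minus strand): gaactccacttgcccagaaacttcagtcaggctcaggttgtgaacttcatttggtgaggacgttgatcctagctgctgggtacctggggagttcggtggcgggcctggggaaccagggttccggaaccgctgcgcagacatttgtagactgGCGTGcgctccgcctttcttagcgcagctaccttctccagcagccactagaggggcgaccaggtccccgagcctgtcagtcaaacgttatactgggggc
Pfkp (chr13:6648772-6649021, minus strand): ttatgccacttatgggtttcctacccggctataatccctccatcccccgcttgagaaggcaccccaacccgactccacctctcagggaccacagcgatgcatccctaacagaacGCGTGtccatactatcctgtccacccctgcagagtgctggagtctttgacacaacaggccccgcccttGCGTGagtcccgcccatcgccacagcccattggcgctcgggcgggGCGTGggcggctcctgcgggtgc
Pdk1, the first of 2 windows (chr2:71872974-71873223, plus strand): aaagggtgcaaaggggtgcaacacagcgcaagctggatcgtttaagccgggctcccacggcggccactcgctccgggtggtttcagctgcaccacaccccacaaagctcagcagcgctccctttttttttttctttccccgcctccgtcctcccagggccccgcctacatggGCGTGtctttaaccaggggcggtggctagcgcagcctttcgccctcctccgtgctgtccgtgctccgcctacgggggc
Each of the 6 windows shown held at least 1 of the 2 core forms, the genes that fell included, and the second Pdk1 window, not shown, held 0 of either. The windows of Tpi1 and Eno2, also called members and not shown, held 0 of either, so the count among the windows shown depends on which genes were picked. ACGTG was present in 20 of the 56 member windows (35.7%) and in 16.6% of all 32851 windows, and GCGTG in 51.8% and 28.2%. The palindrome CACGTG, which holds ACGTG, was in 12.5% of member windows and 6.02% of all. The GATA motifs AGATAA (14.3% and 9.99%) and TGATAA (8.93% and 7.94%) were closer to the share of all windows. The windows were not matched for base composition, and a match is a run of letters, not a bound site.

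Early on, few members moved. At 16h, 2 of 37 were called higher and 0 lower, where 1.97% of all genes tested were called higher and 0.804% lower. A fit of the 16h and 0h libraries alone gave 2 and 1, with 3.09% of all genes called in either direction. At 24h, 2 were higher and 1 lower (all genes, 3.24% and 2.44%). At 48h, 7 were higher and 2 lower (9.14% and 7.26%). The count was 7 higher and 4 lower at 72h (14.7% and 11.5%), and 12 and 2 without 72h library 3. That fit added Gpi1 (1.19), Pfkfb1 (1.18), Pfkfb3 (1.37), Aldoc (1.58) and Pdk2 (1.23) to the higher members and lost Pfkp and Pdk1 from the lower ones. At 96h it was 6 and 6 (15.4% and 14.1%). At 168h, 9 members were higher and 5 lower (22.6% and 16.5%), which is 24.3% and 13.5% of the members and so near the background in both directions. With median-of-ratios rescaling, which moved the median change of all genes at 168h from 0.09 to -0.05, the 168h split was 6 and 6. Without 0h library 3 the split was 1 and 0 at 16h, 4 and 3 at 48h, and it was 7 and 5 at 168h. The median change of the members at 168h was -0.15, with 15 above 0 and 22 below.

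With all libraries, no member was called in both directions over the 6 Dox times. In the 72h fit without library 3 Aldoc was called higher, against its lower call at 168h with all libraries. Of the 37, 19 were called at least once, 11 of them higher and 8 lower, and 18 were called at none. Of all genes tested, 45.4% were called at least once over these times, 26% only higher and 19.1% only lower, against 51.4% of the members. The raised genes were Slc2a3, Pfkl, Pfkfb2, Pfkfb3, Tpi1, Pgk1, Eno2, Slc16a1, Slc16a3, Pdk2 and Fbp2. The lowered genes were Pfkp, Pfkm, Aldoc, Eno1, Eno3, Ldhb, Pdk1 and Pdk4. These comparisons share the 0h libraries.

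**Figure D2:**
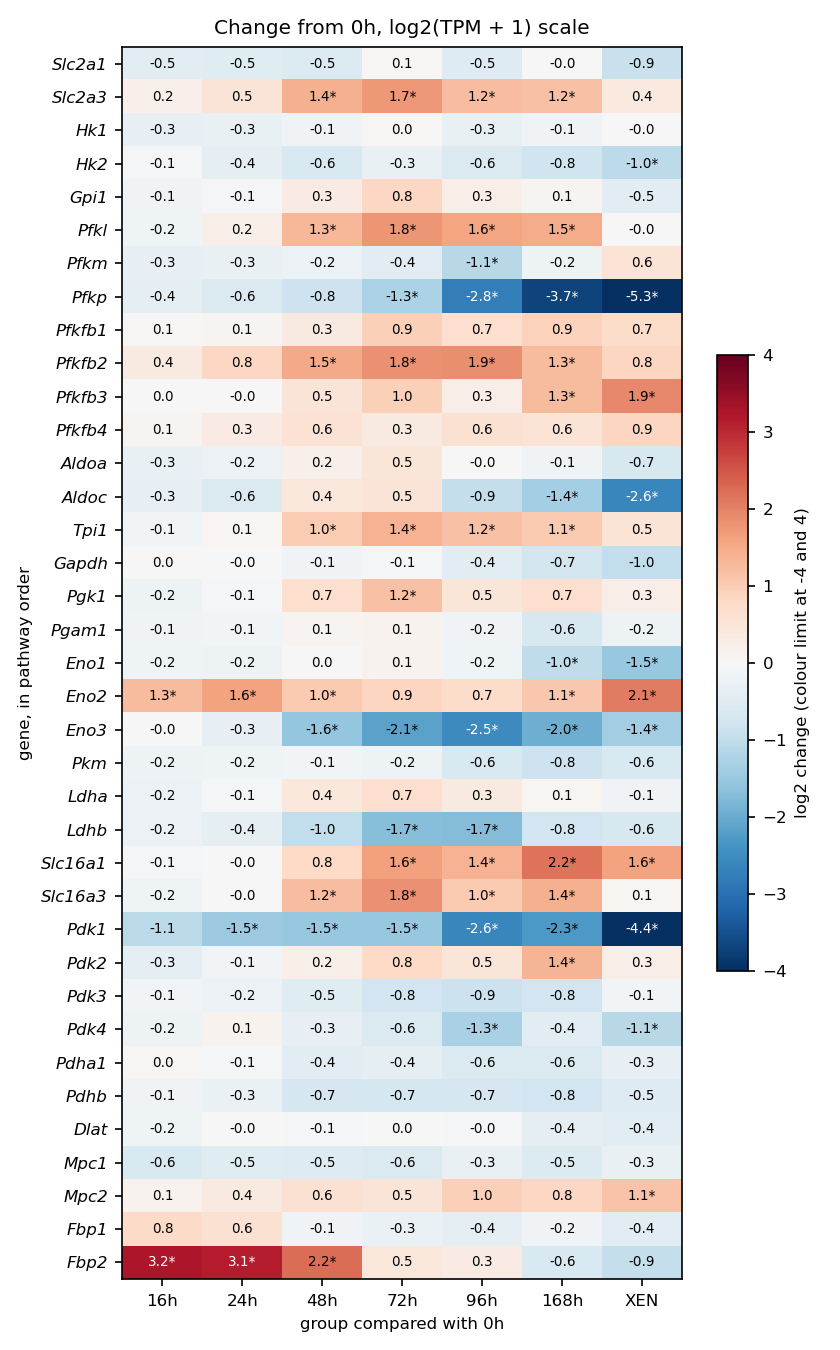
Change of each of the 37 members from 0h, as the difference of mean log2(TPM + 1), at each Dox time and in XEN cells, with genes in pathway order and an asterisk on called changes. Pfkp falls to -3.71 at 168h while Pfkl stands at 1.49, Pdk1 falls to -2.29, Slc16a1 rises to 2.17, and Fbp2 is raised by 3.25 at 16h and is below its 0h level at 168h.

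Of the glucose transporter members, Slc2a3 had the higher transcript level, and it codes for the high-affinity transporter GLUT3 (mm10, GENCODE M21, chr6:122727809-122801640). Slc2a3 stood at 346, 332 and 298 TPM in the 0h libraries, 853, 858 and 888 at 48h, 1266, 1385 and 746 at 72h and then 802, 929 and 519 at 168h. All 48h, 72h, 96h and 168h libraries lay above all 0h libraries, with the third 72h and 168h libraries the lowest of their groups. The change was 1.41 ± 0.18, adjusted p = 2.11e-06 at 48h and 1.16 ± 0.18, adjusted p = 9.77e-06 at 168h. The 168h change fell below the minimum of 1 with rescaling (0.98) and without 168h library 2 (0.99). Slc2a1, which codes for GLUT1, the widespread basal transporter, was not called at any time, with 168h values of 175, 186 and 132 TPM against 185, 182 and 135 at 0h. The share of Slc2a1 in the summed TPM of the pair was 33.8% ± 2.34 (SD, n = 3) at 0h, 11.5% ± 0.382 at 48h and then 18.3% ± 1.82 at 168h.

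The next step, hexokinase, traps glucose as glucose-6-phosphate. Hk2, the inducible form bound to mitochondria, was the main member at 0h with 131, 131 and 137 TPM, and Hk1, the housekeeping form, had 26.4, 24.4 and 22.6 TPM. Neither was called at a Dox time, and the change of Hk2 at 168h was -0.80 ± 0.12, adjusted p = 1.03e-05, under the minimum of 1. In XEN cells Hk2 stood at 64.3 and 63.04 TPM and was called lower (-1.05 ± 0.14, adjusted p = 1.49e-06). Hkdc1, a hexokinase family gene outside the member list that lies beside Hk1 (mm10, chr10:62383137-62422491 and chr10:62268855-62379908), went from 0.0609, 0.102 and 0.0406 TPM at 0h to 82.6, 81.3 and 14.5 at 72h and then 184, 196 and 206 at 168h. Its change at 168h was 7.52 ± 0.39, adjusted p = 1.39e-12. Of the summed TPM of Hk1, Hk2 and Hkdc1, Hkdc1 took 8.52% ± 1.02 at 48h, 36.5% ± 0.243 at 96h, 66.4% ± 2.35 at 168h and 49.8% ± 0.403 (n = 2) in XEN cells. Gpi1, which converts the product to fructose-6-phosphate, was not called at any time with all libraries and had its highest mean at 72h, with 635, 683 and 306 TPM, where library 3 lay within the range of the 0h libraries (307, 307 and 254 TPM). Without library 3 its 72h change was called (1.19 ± 0.09, adjusted p = 1.92e-09).

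For phosphofructokinase-1, the committed and most regulated step, the balance of paralogue transcripts changed. Pfkp, the platelet form (chr13:6579768-6648777), fell, though not at every step in every library. It went from 105, 111 and 95.9 TPM at 0h to 53.7, 50.6 and 70.6 at 48h, 65.7, 69.7 and 16.2 at 72h, 11.99, 14.00 and 17.8 at 96h and then 6.12, 6.97 and 8.07 at 168h. The 168h libraries were the lowest of the course, and 72h library 3 was near the 96h level while libraries 1 and 2 of that time were near the 48h level. The change was -3.71 ± 0.35, adjusted p = 1.07e-08 at 168h, a 14.7-fold lower mean, and -2.87 ± 0.35, adjusted p = 7.5e-07 from 48h to 168h. At 72h it was -1.28 with all libraries and -0.61, not called, without library 3.

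Pfkl, the liver form (chr10:77986947-78010083), moved the other way. Its levels were 109, 105 and 76.7 TPM at 0h, 117, 109 and 115 at 24h, 245, 251 and 228 at 48h and then 280.0, 244 and 294 at 168h. No library from 48h on overlapped the 0h libraries. The changes were 1.32 ± 0.15, adjusted p = 3.47e-07 at 48h and 1.49 ± 0.15, adjusted p = 2.09e-08 at 168h. Pfkm, the muscle form, was called at 96h, with a change of -1.09 ± 0.16, adjusted p = 6.5e-06, and stood at 16.5, 13.9 and 13.5 TPM at 168h against 18.5, 15.8 and 16.9 at 0h.

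In shares of the summed phosphofructokinase-1 TPM, Pfkp held 47.8% ± 2.78 at 0h, 18.6% ± 3.47 at 48h, 4.71% ± 0.629 at 96h and then 2.40% ± 0.333 at 168h (SD, n = 3). Pfkl held 44.3% ± 3.40 at 0h and 92.6% ± 0.521 at 168h. At 72h the share of Pfkl was 82.5%, 82.4% and 90.8% in libraries 1 to 3, and all 3 lay above the 48h libraries. The sum of the 3 genes was 218 ± 24.7 TPM at 0h and 294 ± 26.2 TPM at 168h.

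**Figure D3:**
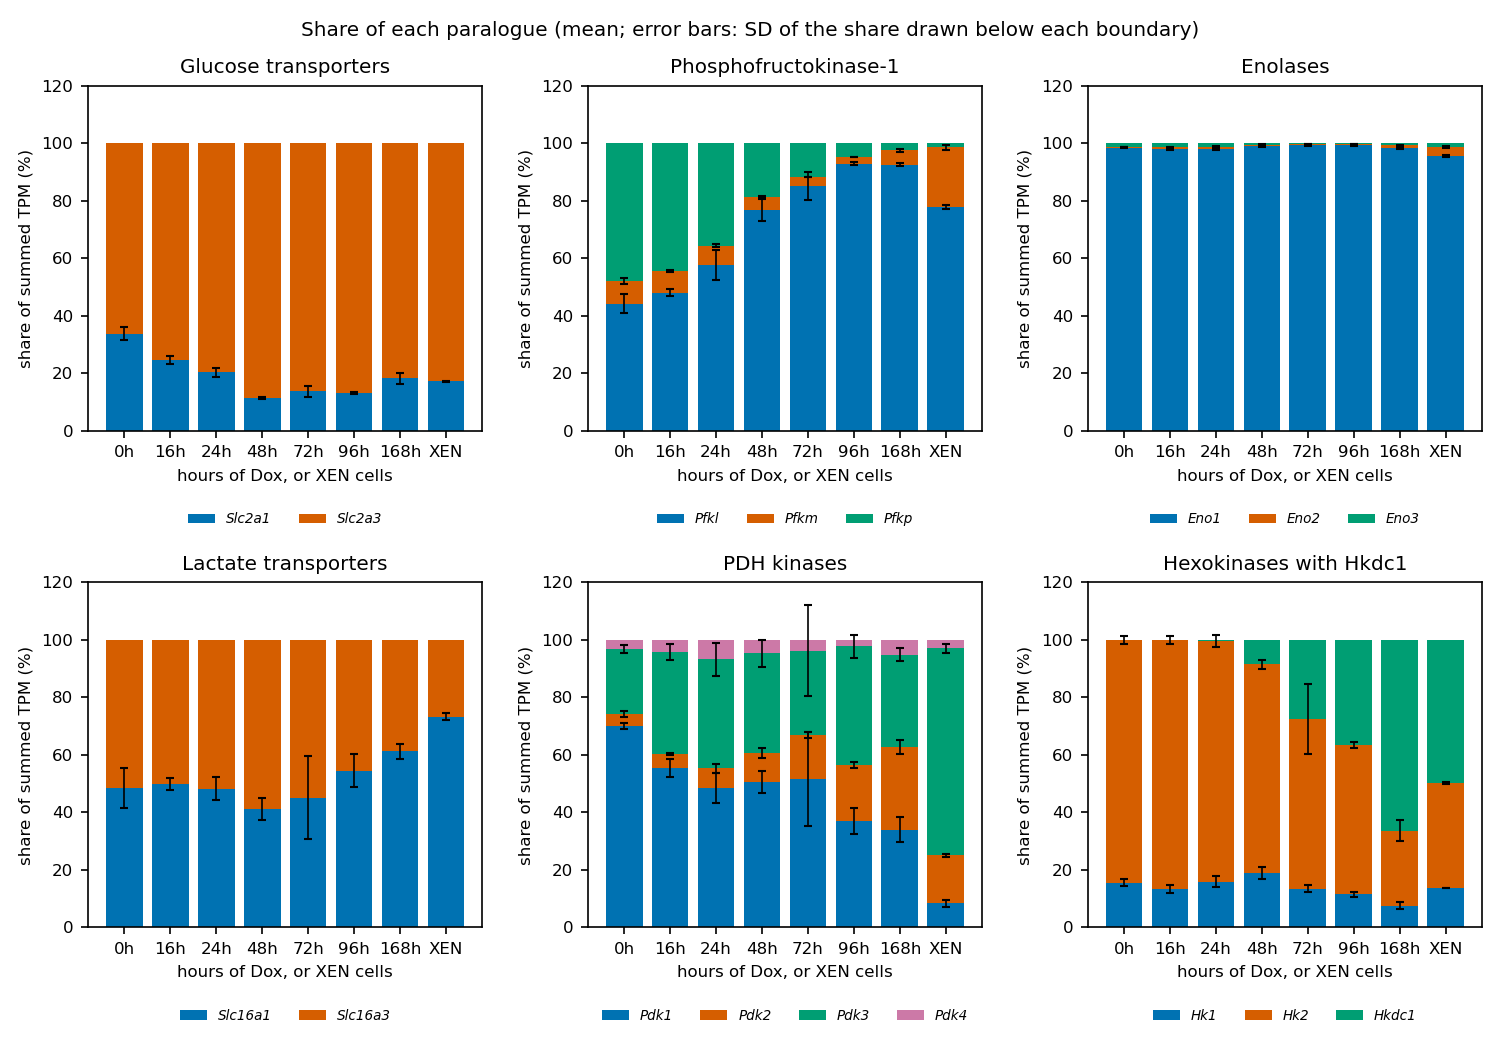
Share of each paralogue in the summed TPM of its step, in percent, by time of Dox and in XEN cells (stacked bars are means of 3 libraries, 2 for XEN; error bars are the SD of the share just under each boundary). Pfkp shrinks from 47.8% to 2.40% of phosphofructokinase-1, Pdk1 from 70.2% to 34.0% of the PDH kinases, and Hkdc1 grows to 66.4% of the hexokinase sum at 168h.

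The PFKFB genes code for the enzyme that makes and removes fructose-2,6-bisphosphate, the strongest activator of phosphofructokinase-1. Pfkfb2 rose, from 4.43, 3.59 and 3.61 TPM at 0h to 7.63, 8.48 and 6.95 at 24h, 13.1, 14.6 and 11.3 at 48h and then 16.00, 15.2 and 18.8 at 96h, and was at 9.98, 11.4 and 11.03 at 168h. Its change was 1.86 ± 0.12, adjusted p = 9.98e-11 at 96h and 1.28 ± 0.12, adjusted p = 1.57e-08 at 168h, and 72h library 3 did not stand apart for this gene, at 15.8, 16.4 and 16.6 TPM in libraries 1 to 3. Pfkfb3, the form whose kinase activity most exceeds its phosphatase activity, had 12.4, 19.1 and 6.48 TPM at 168h against 4.18, 4.69 and 3.88 at 0h (1.27 ± 0.30, adjusted p = 0.0009). The spread between the 168h libraries was wide, and the call was lost without library 2, at 0.93. Pfkfb1 and Pfkfb4 were not called at any time with all libraries and reached at most 0.95 (72h) and 0.61 (96h). Without 72h library 3, Pfkfb1 was called at 72h (1.18 ± 0.11, adjusted p = 3.72e-08).

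The enzymes from aldolase to pyruvate kinase are the abundant part of the pathway. The 18 enzyme members together made up 13126 ± 997 TPM at 0h, 13867 ± 505 at 48h, 11934 ± 526 at 96h and then 9935 ± 612 at 168h (SD, n = 3). The 168h libraries, at 9501 to 10635 TPM, lay below all 0h libraries, at 11977 to 13767. With rescaling the 168h sum was 9099 TPM against 13645 at 0h. Gapdh alone was 4826, 4859 and 4605 TPM before Dox and 3165, 2697 and 2831 at 168h, and the sum without Gapdh was 8363 ± 862 and 7037 ± 375 TPM.

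Within this stretch the genes did not move as a block. Tpi1, which interconverts the triose phosphates, was at 396, 403 and 279 TPM at 0h, 751, 721 and 703 at 48h and then 799, 661 and 768 at 168h, with no overlap from 48h on and a change of 1.06 ± 0.17, adjusted p = 1.07e-05 at 168h. That change was 0.88 with rescaling and 0.89 without 0h library 3, both under the minimum, and the 48h change of 1.03 was 0.86 without 0h library 3. Pgk1, the first ATP-yielding enzyme, was called at 72h alone (1.16 ± 0.24, adjusted p = 0.000365), and this rested on libraries 1 and 2, since its values were 1603, 1762 and 612 TPM at 72h, against 584, 591 and 450.4 at 0h. With library 3 as the only 72h library the change was 0.19. Gapdh (-0.72 ± 0.11, adjusted p = 6.11e-06), Pgam1 (-0.63 ± 0.10, adjusted p = 8.94e-06) and Pkm (-0.82 ± 0.13, adjusted p = 1.56e-05) passed the adjusted p at 168h in the lower direction without reaching the minimum of 1. For Pkm, gene totals do not separate the M1 and M2 splice forms. Aldoa, the main aldolase, stood at 1172, 1146 and 1064 TPM at 168h, against 1329, 1286 and 1132 at 0h (-0.15 ± 0.19, adjusted p = 0.50).

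Enolase is the next to last step. Eno1, the main form, was at 1775, 1744 and 1439 TPM at 0h, 1484, 1536 and 1408 at 96h and then 888, 729.8 and 823 at 168h. The fall lay between 96h and 168h, and the 168h libraries were below all others of the induced cells. Its change was -1.02 ± 0.09, adjusted p = 4.34e-09 at 168h, at the edge of the minimum, and it was under it without 168h library 2 (-0.94), 0h library 1 (-0.97) or 0h library 2 (-0.98). Eno1b, a near-identical copy, was listed at 697, 717 and 602 TPM at 0h and 352, 282 and 307 at 168h, and how reads were divided between the 2 genes is uncertain. Their shares hardly changed, at 28.6% ± 0.650 and 27.5% ± 0.666 for Eno1b among the enolases.

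The minor enolases went in opposite directions. Eno3, the muscle form, was at 20.2, 21.3 and 19.6 TPM at 0h and 1.84, 2.88 and 3.52 at 96h (-2.54 ± 0.16, adjusted p = 6.75e-11). Eno2, the neuronal form, was one of the earliest members to move, with 4.40, 5.39 and 2.19 TPM at 0h and 15.7, 13.2 and 12.5 at 24h (1.62 ± 0.22, adjusted p = 1.47e-05), and it was also called at 16h, 48h and 168h but not at 72h or 96h. Without 0h library 3 the 16h, 48h and 168h changes were 0.98, 0.76 and 0.79, all under the minimum. Aldoc, a minor aldolase, was called lower at 168h (-1.37 ± 0.55, adjusted p = 0.0319). The adjusted p was missed in 6 of the alternatives, among them the omission of 168h library 1 or 3 or of 0h library 1 or 2, with changes of -1.17 to -1.37. At 72h Aldoc was at 37.1, 39.6 and 3.21 TPM, against 13.6, 13.2 and 9.91 at 0h, so its direction there differed between libraries.

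**Figure D4:**
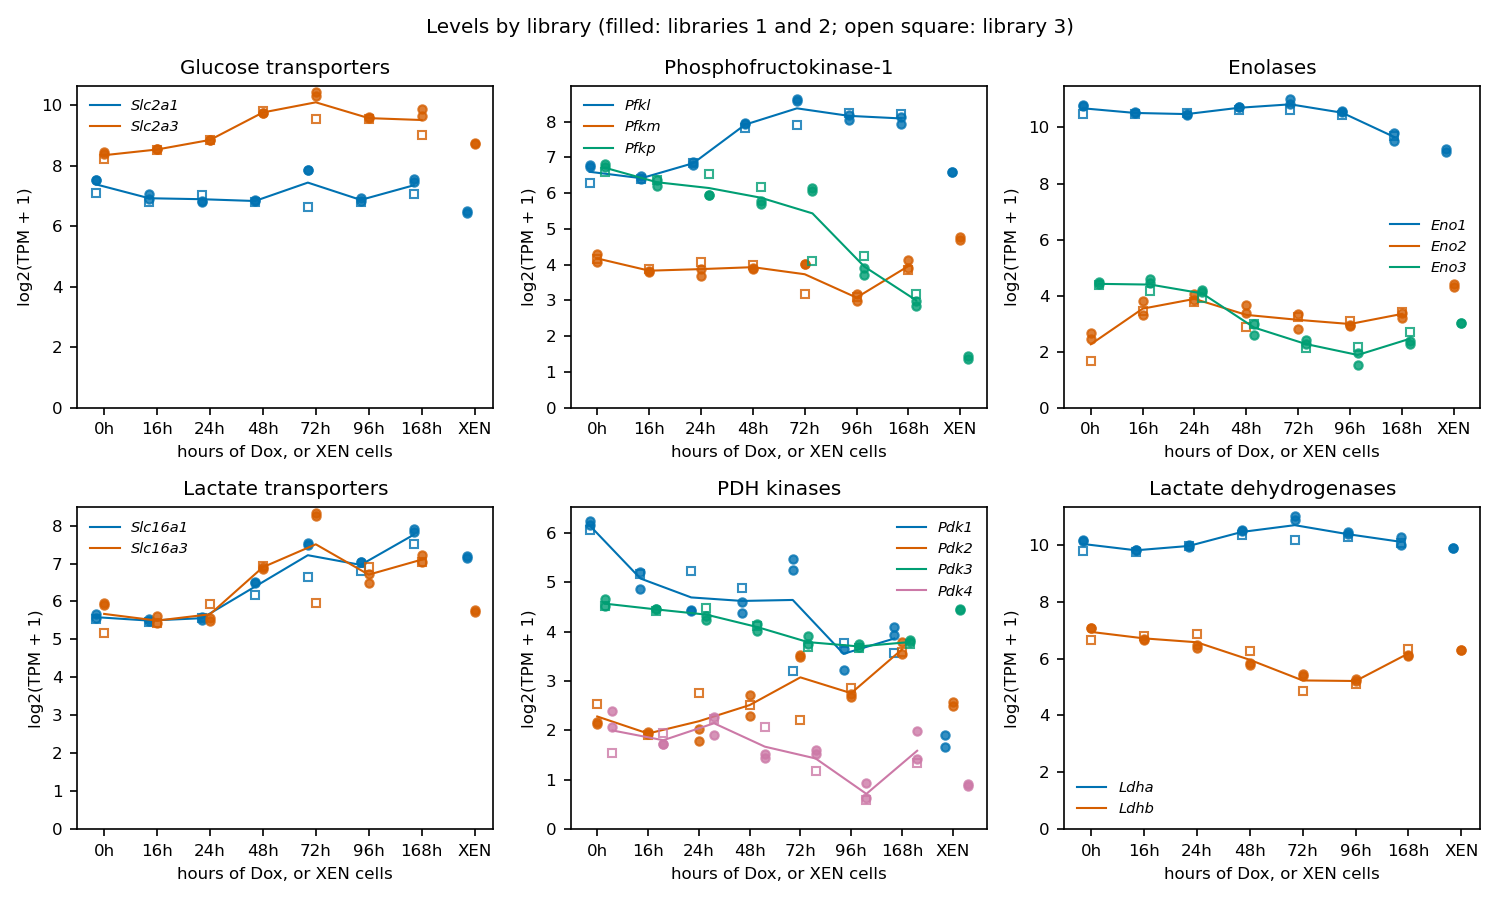
Level of the paralogues of 6 steps, as log2(TPM + 1), in each library by hours of Dox and in XEN cells (filled points are libraries 1 and 2, open squares library 3, lines join the means of the inducible cells). Pfkl and Pfkp overlap at 0h, and Pfkl lies above Pfkp in each 24h library and further above it from 48h. Slc16a1 and Slc16a3 rise from 48h. At 72h the open squares of Slc2a3, Slc16a3, Pfkp and Pdk1 lie below the filled points.

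Lactate dehydrogenase turns pyruvate into lactate and back, and the A form favours the former. Ldha was not called at any time and was at 1231, 1014 and 1079 TPM at 168h against 1144, 1137 and 881 at 0h. Ldhb fell, from 133, 134 and 101 TPM at 0h to 40.4, 42.5 and 28.4 at 72h and then 36.5, 38.3 and 33.5 at 96h, and was at 66.6, 69.5 and 79.3 at 168h. It was called lower at 72h (-1.71 ± 0.16, adjusted p = 1.81e-08) and 96h (-1.73 ± 0.16, adjusted p = 1.29e-08), and the 168h change of -0.76 did not reach the minimum. Its share of the pair was 10.4% ± 0.153 at 0h, 2.16% ± 0.185 at 72h, 2.64% ± 0.0134 at 96h and then 6.13% ± 0.894 at 168h.

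Both lactate transporters rose. Slc16a1, which codes for MCT1 (chr3:104638668-104658462), was at 49.5, 46.5 and 45.3 TPM at 0h, 88.4, 90.4 and 71.1 at 48h, 131, 131 and 110.3 at 96h and then 228, 241 and 182 at 168h. It was the most raised member at 168h (2.17 ± 0.17, adjusted p = 5.28e-10, 4.61-fold in means) and still rose between 48h and 168h (1.37 ± 0.17, adjusted p = 7.74e-07). Slc16a3, which codes for MCT4, the low-affinity exporter of glycolytic cells (chr11:120948480-120960868), was at 61.2, 58.6 and 34.7 TPM at 0h, 119.8, 115 and 121 at 48h, 304, 318 and 60.7 at 72h and then 131, 149 and 130.3 at 168h. The 168h libraries did not overlap the 0h libraries (1.43 ± 0.40, adjusted p = 0.00356). The 72h change of 1.83 was 0.28, not called, with library 3 alone, and without 0h library 3 the 48h change was 0.98, under the minimum. The 96h change of 1.03 was lost in 6 alternatives, among them rescaling (0.98), the omission of 96h library 2 (1.03) or 3 (0.94) and of 0h library 3 (0.78). Bsg, the chaperone that both transporters need to reach the membrane and which is not among the 37, went from 452, 421 and 419 TPM at 0h to 1969, 2036 and 1864 at 168h (2.18 ± 0.17, adjusted p = 4.94e-10). The pair summed to 98.6 ± 16.3 TPM at 0h and 354 ± 39.2 TPM at 168h, with Slc16a3 at 51.5% ± 7.001 and 38.8% ± 2.69 of it.

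The PDH kinases phosphorylate and inactivate the PDH complex, and both their summed level and its make-up differed after Dox. Pdk1, a textbook HIF target (chr2:71873224-71903858), was the main kinase at 0h, with 74.2, 70.7 and 65.6 TPM. It was at 28.2, 35.7 and 34.7 at 16h, 20.5, 20.4 and 36.5 at 24h, 19.7, 23.3 and 28.6 at 48h, 37.01, 43.5 and 8.19 at 72h, 8.37, 11.6 and 12.7 at 96h and then 14.2, 16.04 and 10.8 at 168h. Every library with Dox lay below every 0h library. Pdk1 was called from 24h on (-1.46 ± 0.39, adjusted p = 0.00826) and its change was -2.29 ± 0.39, adjusted p = 2.88e-05 at 168h. The 16h change of -1.08 had an adjusted p of 0.0805 in the limma fit whose spread is shared by all groups. In a fit of the 16h and 0h libraries alone, 1 member was called lower, and Pdk1 was the only member past the minimum in that direction. The 72h change went from -1.51 to -0.79, not called, without library 3.

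Pdk2, the broadly expressed kinase, was at 3.50, 3.37 and 4.83 TPM at 0h and 12.7, 10.8 and 10.9 at 168h (1.36 ± 0.27, adjusted p = 0.00016), with no overlap. Pdk3 was at 21.9, 24.4 and 21.9 TPM at 0h and 13.2, 12.7 and 12.5 at 168h (-0.78 ± 0.08, adjusted p = 2.16e-08), under the minimum. Pdk4, the starvation-induced kinase, was low throughout, at 4.24, 3.18 and 1.91 TPM at 0h and 0.538, 0.902 and 0.507 at 96h, where it was called lower (-1.28 ± 0.22, adjusted p = 3.18e-05). The 4 genes summed to 99.9 ± 5.004 TPM at 0h, 59.1 ± 4.07 TPM at 16h, 29.3 ± 2.64 TPM at 96h and then 40.05 ± 3.76 TPM at 168h. Of these sums, Pdk1 made up 70.2% ± 1.07 at 0h and 34.02% ± 4.43 at 168h, and Pdk2 made up 3.94% ± 1.03 and 28.7% ± 2.34. At 72h the share of Pdk1 was 59.95%, 62.1% and 32.8% in libraries 1 to 3, so that library 3 alone was near the 168h share.

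The PDH complex itself was not called at any time. Pdha1 and Pdhb, the subunits of its E1 enzyme, passed the adjusted p in the lower direction at 168h with changes of -0.59 ± 0.07, adjusted p = 1.84e-07 and -0.78 ± 0.07, adjusted p = 2.52e-09. Dlat, the E2 subunit, changed by -0.36 ± 0.09, adjusted p = 0.00231. The 3 genes summed to 396 ± 26.0 TPM at 0h, 282 ± 1.63 at 48h and 252 ± 13.4 at 168h. The subunits of the mitochondrial pyruvate carrier, which work as a heterodimer, differed in sign. Mpc1 changed by -0.54 ± 0.10, adjusted p = 7.41e-05 and Mpc2 by 0.83 ± 0.12, adjusted p = 6.12e-06, with all 168h libraries of Mpc2 (36.97, 35.5 and 35.4 TPM) above and all of Mpc1 (21.9, 16.9 and 20.03 TPM) below their 0h libraries (18.7, 20.4 and 20.4 and 28.5, 27.6 and 30.6 TPM). Neither change reached the minimum.

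Fructose-1,6-bisphosphatase runs the phosphofructokinase-1 step backwards in gluconeogenesis. Fbp2, its muscle form (chr13:62836877-62858422), made the largest early move of the 37. It was at 1.62, 1.66 and 0.974 TPM at 0h, 21.04, 19.8 and 24.7 at 16h, 21.6, 21.9 and 16.7 at 24h, 11.1, 9.26 and 10.6 at 48h, 2.39, 2.01 and 2.54 at 72h and then 0.244, 0.569 and 0.983 at 168h. The 16h and 24h libraries were far above the 0h libraries, and by 168h none was above the highest 0h library. The change was 3.25 ± 0.16, adjusted p = 4.49e-11 at 16h, 15.4-fold in means, and -2.85 ± 0.16, adjusted p = 3.13e-11 between 48h and 168h. Fbp1, the liver form, did not exceed 1.65 TPM in any library.

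Between 48h and 168h, 2 members were called higher and 4 lower, where 12.6% and 9.19% of all genes were. The higher ones were Slc16a1 and Pdk2, and the lower ones Pfkp, Aldoc, Eno1 and Fbp2. With rescaling Pdk2 dropped to 0.99 and was no longer called.

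XEN cells were set against both ends of the series. Against 0h, 4 members were higher and 7 lower, or 4 and 10 without 0h library 3 (18.9% and 18.7% of all genes). Pfkp at 1.59 and 1.70 TPM (-5.31 ± 0.39, adjusted p = 3.57e-10) and Pdk1 at 2.73 and 2.15 TPM (-4.37 ± 0.44, adjusted p = 3.28e-08) were further down than at 168h, and the differences from 168h were called (-1.60 and -2.08). Slc16a1 (1.59 ± 0.19, adjusted p = 2.69e-07), Eno2 (2.09 ± 0.25, adjusted p = 3.03e-07), Pfkfb3 (1.94 ± 0.34, adjusted p = 4.34e-05) and Mpc2 (1.13 ± 0.14, adjusted p = 5.57e-07) were the higher ones. Besides Pfkp and Pdk1, the lower ones were Hk2, Aldoc, Eno1, Eno3 and Pdk4. Mpc2 was under the minimum without XEN library 1 (0.99), and Pdk4 without 0h library 1 (-0.91).

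Against 168h, XEN cells had 1 member higher and 5 lower (4.73% and 9.17% of all genes). Pfkl was at 95.9 and 95.5 TPM in XEN cells, within the range of the 0h libraries, and below 168h (-1.50 ± 0.16, adjusted p = 5.22e-07). Slc16a3 was likewise at 51.4 and 53.5 TPM, with a difference of -1.36 ± 0.45, adjusted p = 0.0172 that kept its size without XEN library 1 (-1.34) or 2 (-1.39) but then missed the adjusted p. Pdk2 (-1.10 ± 0.30, adjusted p = 0.00534) was 0.95 lower, under the minimum, with rescaling. Eno2 was the member called higher (1.01 ± 0.25, adjusted p = 0.00218), just past the minimum and lost without XEN library 1 (0.95) or 168h library 1 (0.94). Pfkm made up 20.8% ± 0.791 of phosphofructokinase-1 in XEN cells against 4.99% ± 0.630 at 168h. Pdk3 made up 72.03% ± 1.47 of the PDH kinases against 32.1% ± 2.38. Neither gene was called against 168h, and both sums were lower in XEN cells. The phosphofructokinase-1 sum was 123 TPM in XEN cells and 294 at 168h, and the PDH kinase sum 29.0 and 40.05 TPM. Pfkm was at 26.4 and 24.6 TPM in XEN cells, against 16.5, 13.9 and 13.5 at 168h. Pdk3 was at 20.8 and 20.9 TPM, against 13.2, 12.7 and 12.5 at 168h and 21.9, 24.4 and 21.9 at 0h. The 18 enzymes summed to 8286 and 8417 TPM in the XEN libraries, below all libraries of the inducible cells.

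Routes that branch from glycolysis were counted from fixed lists at 168h against 0h, where 22.6% of all genes were called higher and 16.5% lower. Of 16 tested glucose transporters, partners and paralogues outside the members, 4 were higher and 5 lower, with Hkdc1, Bsg and Pgm2 (2.20), a phosphoglucomutase, the most changed. Pgm1 was the other higher gene, and Emb, Ldhc, Ldhd, Pgam2 and Tigar were the lower ones (names beyond the 3 most changed of a list complete the counts and were chosen after their values were seen). Of 5 genes of the serine branch, which leaves at 3-phosphoglycerate, 0 were higher and 4 lower, namely Phgdh, Psat1 (-2.34 ± 0.19, adjusted p = 1.66e-09), Shmt1 (-1.90) and Shmt2 (-1.82). Of 8 pentose phosphate genes 2 were higher (H6pd and Rpia) and 1 lower, with Rpia (1.63) and G6pdx (-1.08), the entry enzyme, in opposite directions. Among 3 tested genes of gluconeogenesis, G6pc3 (2.06) and Slc37a4 (1.78), which release glucose from its phosphate in the endoplasmic reticulum, were higher and Pck2 (-1.51) was lower. Of 7 glycogen genes 1 was higher (Gbe1, the branching enzyme, 1.84), and none of the 6 tested genes that complete the PDH complex, its phosphatases and pyruvate carboxylase was called.

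Regulators and HIF targets were counted the same way, against the same 22.6% and 16.5% of all genes. Of 14 tested regulators of glycolytic genes, 3 were higher at 168h (Epas1, Esrra and Mlxip) and 4 lower (Esrrb, Lin28b, Mlxipl and Myc). Epas1, which codes for the HIF-2 alpha subunit, went from 14.8, 13.3 and 14.5 TPM at 0h through 1.99, 1.90 and 1.34 at 48h to 268, 249 and 290.0 at 168h. Myc went from 28.1, 26.8 and 34.8 TPM at 0h up to 59.7, 63.3 and 58.1 at 16h. It then fell to 1.54, 1.73 and 2.27 at 168h (-3.44 against 0h), and was at 19.4 and 17.3 in XEN cells. Hif1a, the other alpha subunit, was not called and was at 48.5, 48.4 and 44.9 TPM at 0h against 60.6, 54.9 and 64.9 at 168h. Of 15 HIF targets outside glycolysis, 8 were higher and 1 (Kdm3a) lower, led by P4ha2 (6.81) and P4ha1 (6.28), collagen prolyl hydroxylases, and by Ndrg1 (2.95 ± 0.69, adjusted p = 0.000814). Of near-identical copies of members, 2 were tested and 1 (Eno1b) was lower.

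The siRNA experiment asked what depends on OCT4 at 48 h of Dox. Pou5f1 itself was at 782 to 1194 TPM in siCTL and 282 to 387 TPM in siOct4 libraries, without overlap (difference in log2 of -1.52, two-sided exact permutation test, p = 0.00216, the smallest that 6 against 6 libraries can give). Of the 21 members listed, limma called 0 higher and 0 lower at a minimum change of 0.5 (0.942% and 1.72% of 6264 genes tested), and 2 had an unadjusted p under 0.05. The other 16 members are not in this table, and those in it were selected by the study on their response to GATA6.

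Same-numbered siCTL and siOct4 libraries deviated from their group means together in all 6 pairs, so the number was tried as a block. The correlation was 0.707 for pair 3 and 0.236 to 0.274 for the others, and libraries of pairs 2 and 5 correlated better with another number. A 1-to-1 pairing is therefore not established, and pairs below means equal numbers. With the number as a block, 0 members were called higher and 3 lower, where 2.43% and 6.15% of all genes were. Pfkp changed by -0.84 ± 0.18, adjusted p = 0.0148, Pfkfb2 by -0.83 ± 0.22, adjusted p = 0.0404 and Eno2 by -0.98 ± 0.26, adjusted p = 0.0396. Without the block their adjusted p values were 0.37, 0.28 and 0.13. Each was lower in 6 of 6 pairs, but pair 1 of Pfkp was nearly equal, at 50.4 TPM in both libraries. How many of all genes tested had the same sign in 6 of 6 pairs was not counted. For Pfkp the siCTL libraries ran from 15.6 through a median of 55.4 to 62.2 TPM and the siOct4 libraries from 9.53 through 23.8 to 50.4 TPM, so the groups overlapped. Pfkfb2 ran from 5.25 through 19.8 to 22.7 TPM in siCTL and from 4.70 through 9.55 to 13.7 TPM in siOct4 libraries. Eno2 ran from 5.13 through 7.06 to 14.4 TPM and from 1.56 through 3.99 to 7.16 TPM. Pfkl was also lower in 6 of 6 pairs (-0.48 ± 0.12, adjusted p = 0.0291 with the block), just under the minimum of 0.5.

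The calls, more than the sizes of the changes, rested on how libraries were counted. Libraries 1 and 2 and libraries 5 and 6 of both groups, and libraries 3 and 4 of siOct4, correlated at 0.978 to 0.990, and the other pairs of a group, siCTL 3 with 4 (0.938) among them, at 0.969 or less. Whether such neighbours are independent was not tested. With consecutive libraries averaged, 0 members were called, with or without a block, while the changes kept their size, at -0.85 for Pfkp, -0.90 for Pfkfb2 and -1.02 for Eno2. Their adjusted p values with the block were then 0.0667, 0.071 and 0.11. Leaving out libraries 3 and 4, without a block, also gave 0 calls, with Pfkp at -0.85 ± 0.24, adjusted p = 0.0918, Pfkfb2 at -0.82 ± 0.24, adjusted p = 0.10, and Eno2 smaller, at -0.57 ± 0.24, adjusted p = 0.26. In the fit without a block, leaving out siCTL library 3 alone gave 1 call, Pfkfb2 (-1.13 ± 0.26, adjusted p = 0.0233).

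The other members of the siRNA table were not called with the block. With the block, Slc16a3 (0.54 ± 0.17, adjusted p = 0.0686), Ldhb (0.30 ± 0.11, adjusted p = 0.12), Eno3 (0.24 ± 0.15, adjusted p = 0.37) and Pfkfb1 (0.14 ± 0.13, adjusted p = 0.53) were higher in 6 of 6 pairs and Pdk2 (-0.53 ± 0.19, adjusted p = 0.11) was lower in 6 of 6, with no call. Without the block their adjusted p values were 0.64, 0.76, 0.73, 0.77 and 0.47. The smallest pair difference of Pfkfb1 was 0.0057, so that pair was nearly equal. With the block, the 95% intervals of the difference were -0.22 to 0.21 for Slc2a3 and -0.18 to 0.15 for Eno1 (without it, -0.45 to 0.44 and -0.28 to 0.25). For Slc16a1 the interval was 0.09 to 0.64 with the block, adjusted p = 0.097, and -0.01 to 0.74 without it, and both include the minimum of 0.5. Rescaling moved the median change of all genes from -0.12 to 0.01 and gave 0 member calls.

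**Figure D5:**
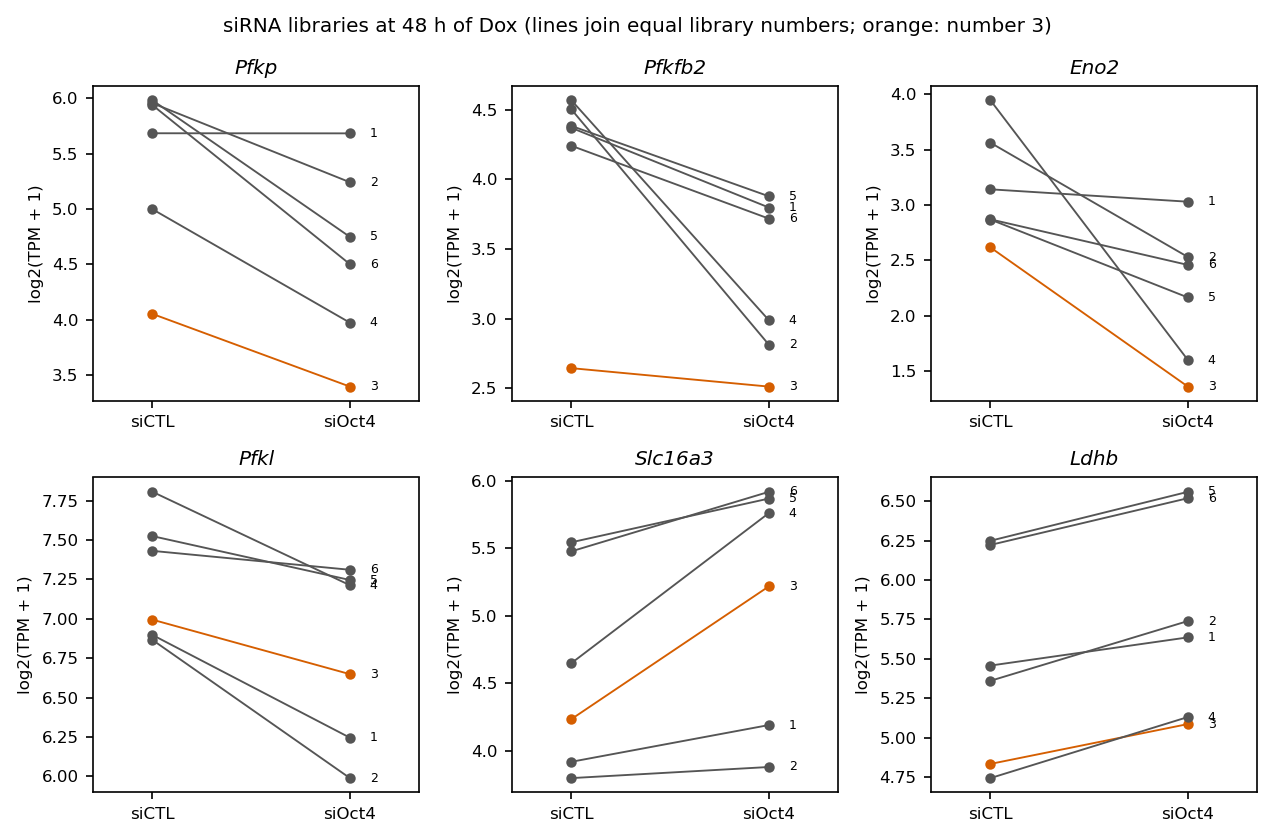
Level of 6 members, as log2(TPM + 1), in siCTL and siOct4 libraries at 48 h of Dox, with lines joining libraries of the same number and number 3 in orange (axes do not start at 0). Pfkp, Pfkfb2, Eno2 and Pfkl go down and Slc16a3 and Ldhb go up in 6 of 6 pairs, with pair 1 of Pfkp nearly level (-0.0009). The siCTL and siOct4 libraries overlap for each gene.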

How the data were processed

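PolyA RNA was sequenced as stranded libraries. The authors aligned the reads to mm10 with STAR and estimated gene levels with RSEM, after bcl2fastq and cutadapt, with versions not given in the sources used here, and deposited TPM values for each library. The induction table held 44915 rows, which gave 44853 genes because 60 symbols, Aldoa among them, stood on several rows, of which the one with the highest mean was used, and its columns sum to 1000000. The deposited siRNA table held TPM values of 6275 genes only, with column sums of 274527 to 355895, beside the authors' group means and response classes, which were not used. The study's methods omit outliers on the first principal component before TPM were made, without saying what was omitted. TPM keeps no read depth, so depth and counting error are unknown.

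Groups followed the labels. The 15057 genes (6264 in the siRNA table) whose mean reached 1 TPM in any group were tested on log2(TPM + 1), a scale that understates changes of low genes, with limma 3.58.1 (R 4.3.3; trend and robust empirical Bayes). All groups of a table shared 1 estimate of the spread. P-values were adjusted by Benjamini-Hochberg over all genes tested. Intervals of a difference used limma's moderated degrees of freedom. A call needed an adjusted p under 0.05 and a log2 change over 1, or over 0.5 for the siRNA table. The study describes the replicates of the induction series as independent, and the siRNA libraries as independent knockdown experiments, while the labels name no separate cultures. The fit was tested on simulated data. Equal library numbers were checked by the correlation of deviations from group means. These were 0.236 to 0.707 for the 6 siRNA pairs, and pairs 2 and 5 did not correlate best with their own number. The number was used as a block in an alternative fit, without a 1-to-1 pairing being established.

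All members were accounted for, those called in any comparison and the most abundant member of each step were given in full, and up to 3 genes of each other list were named by the size of their change at 168h. The members and lists were chosen with earlier results of these data known. Alternatives were median-of-ratios rescaling (library size factors from the median ratio to the geometric mean), a pseudocount of 0.1, filters of none and 5 TPM, an adjusted p of 0.01, no minimum change, fits on the compared groups alone, the library number as a block, and leaving out each library. Promoter windows and motifs were read with Python 3.11.15 (numpy 2.4.6, pandas 2.3.3, scipy 1.17.1) from RefSeq sequences of GRCm38.p6.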

Additional observations from a re-analysis of the deposited data

Results flagged for a closer look

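Values of the 21 members in the 12 siRNA libraries were searched for single libraries whose gap to the nearest other one exceeded Dixon's limit as a share of the range of their group, in 42 sets of 6 libraries, of which chance would mark about 1 in 20, or 2.1 sets. There were 2 marked sets, both in siCTL library 3. Slc2a3, the GLUT3 glucose transporter, stood at 8.895 there on the log2(TPM + 1) scale (475 TPM), against 9.59 to 9.93 in the other siCTL libraries. Pfkfb2, which makes the activator of phosphofructokinase-1, stood at 2.6446 (5.25 TPM), against 4.24 to 4.57. The siOct4 library of the same number was also the lowest of its group for both genes, at 462 TPM for Slc2a3 and 4.70 TPM for Pfkfb2.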

How the results depend on the processing

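Without a minimum change, member calls at 16, 24, 48, 72, 96 and 168 h were 4, 11, 22, 27, 24 and 29 of 37, where 12.9%, 28.5%, 53.7%, 65.6%, 67.3% and 75.0% of all genes were called. They were 16 for 168h against 48h (63.9%), 26 for XEN against 0h (71.2%) and 20 for XEN against 168h (50%). Leaving out 1 library gave 1 to 2 calls at 16h, 3 throughout at 24h, 7 to 10 at 48h, 10 to 14 at 72h, 11 to 12 at 96h, 11 to 13 at 168h, 5 to 7 for 168h against 48h, 10 to 14 and 4 to 8 for XEN against 0h and 168h, and 0 to 1 for siOct4. With the replicate block, siOct4 gave 3 calls. Of 74 called gene changes and 1028 alternatives of them, 979 stayed past the threshold, 49 did not and 0 reversed; the cause was not tested.

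In the induction series equal library numbers shared only a number (mean correlation of deviations 0.033, range -0.19 to 0.22), and the block ended 1 of these calls there, Eno2 in XEN against 168h (0.94). Rescaling changed the split of all genes called higher and lower from 3396 and 2491 to 2885 and 2938 at 168h, from 1893 and 1384 to 1497 and 1635 for 168h against 48h, from 712 and 1380 to 930 and 1076 for XEN against 168h and from 59 and 108 to 144 and 153 for siOct4. Member splits with rescaling were 6 and 3 at 48h, 5 and 6 at 96h, 1 and 4 for 168h against 48h and 1 and 4 for XEN against 168h. With 72h libraries 1 and 2 left out, an alternative chosen after seeing the data like the averaging of consecutive libraries, 72h calls were 4 higher and 5 lower. The enzyme sum with rescaling was 9098.5 TPM at 168h and 8594.5 TPM in XEN cells.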
